A study of Mus musculus with 24 samples.

Results

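Fbxo32, Trim63, Trim55 and Trim54, which encode ubiquitin ligases of striated muscle, and the transcription factor genes Foxo1, Foxo3 and Foxo4 were followed through injury and drug treatment of the mouse heart. They are the 7 genes of the deposited table of 46078 genes whose symbol matched these names, each with 1 entry, and all 7 were expressed highly enough to be tested. Polyadenylated RNA came from the ventricular apex at day 5 in 24 mice, all C57BL/6 males 10 weeks old. WT_PBS mice had no diphtheria toxin and received the vehicle PBS, and WT_PYR mice had no toxin and received pyridostigmine, a drug that blocks the enzymes which break down acetylcholine. DTR_PBS and DTR_PYR mice had a heart injury made with diphtheria toxin and received PBS or pyridostigmine. Each group held 6 animals with 1 library each. DTR commonly stands for a receptor that makes mouse cells open to killing by this toxin (the sources used here do not name the cells that carried it). All DTR animals had the toxin and no WT animal did, so genotype and toxin cannot be told apart, and "injury" means both together.

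Ubiquitin ligases choose the proteins that are tagged for destruction by the proteasome. Fbxo32 encodes atrogin-1, the F-box subunit that brings substrates to an SCF ligase complex, and Trim63, Trim55 and Trim54 encode the MuRF proteins, RING ligases that sit on the sarcomere and can pair with one another. FoxO factors switch on Fbxo32 and Trim63 in wasting muscle, and insulin and IGF signals acting through Akt keep FoxO proteins out of the nucleus. In heart muscle the ligases are known for turning over sarcomere and signalling proteins and for limiting growth of the cell.

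In build GRCm38, Fbxo32 lay at chr15:58175879-58214892 on the minus strand, Trim63 at chr4:134315120-134329629 on the plus strand, Trim55 at chr3:19644474-19692421 on the plus strand and Trim54 at chr5:31116712-31137630 on the plus strand. Foxo1 lay at chr3:52268336-52353221 on the plus strand, Foxo3 at chr10:42181841-42276755 on the minus strand and Foxo4 at chrX:101254528-101260873 on the plus strand. The libraries did not keep strand, and 26.6% of the Trim54 exon bases, 7.78% of those of Foxo1 and 2.67% of those of Fbxo32 were also exon of an annotated antisense gene. Those antisense genes held 95, 0 and 168 reads over all 24 libraries, against 65160, 9348 and 38058 for the 3 genes. Trim63, Trim55, Foxo3 and Foxo4 had no overlapping exon of another gene and shared no stretch of 50 bases with one.

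Of the 7 genes, 4 had a promoter in the RefSeq table used here (Trim63, Trim54, Foxo1 and Foxo3, build GRCm38.p6). The letters GTAAACA, the core that FoxO proteins bind, were searched on both strands of the 250 bases before each RefSeq start. RefSeq starts need not be the gene starts given above, and those of Trim54, Foxo3 and Foxo1 differ from them. Trim63 and Trim54 are shown because the ratio of these related ligases shifted after injury under PBS (log2 difference -0.39, below). That choice was made after the values were seen, and over all 24 libraries they remained the nearest pair among the 7 genes (below). Whether their promoters bear on the shift was not tested. The Trim63 stretch, chr4:134314870-134315119 on the plus strand, held 1 match as the reverse complement TGTTTAC, in capitals, from base -194 to -188 before the start; the Trim54 stretch, chr5:31116362-31116611 on the plus strand, held none.
Trim63: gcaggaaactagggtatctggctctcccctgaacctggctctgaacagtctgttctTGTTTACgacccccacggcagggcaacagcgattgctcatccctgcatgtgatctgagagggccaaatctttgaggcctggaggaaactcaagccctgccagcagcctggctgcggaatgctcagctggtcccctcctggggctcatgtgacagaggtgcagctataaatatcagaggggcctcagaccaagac
Trim54: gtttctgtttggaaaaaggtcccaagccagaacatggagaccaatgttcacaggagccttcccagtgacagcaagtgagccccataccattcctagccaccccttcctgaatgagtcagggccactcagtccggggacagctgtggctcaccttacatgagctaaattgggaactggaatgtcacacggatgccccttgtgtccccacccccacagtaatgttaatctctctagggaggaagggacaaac
The Foxo1 and Foxo3 stretches also held none. The same letters were in 1040 of 32851 RefSeq promoter stretches of this length, or 3.17%, so the match describes the Trim63 sequence and shows no binding.

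Library totals ran from 1.88 to 37.8 M counts, and the lowest count of any of the 7 genes in a library was 44, for Foxo4 in DTR_PBS 4. The libraries of DTR_PYR 4, 5 and 6 stood apart from the other injured hearts. On the first principal component, which held 44.2% of the variance, the 12 WT libraries lay from -57.2 to -35.1 and 9 DTR libraries from 30.3 to 114, while DTR_PYR 4, 5 and 6 lay at -35.4, -25.6 and -20.9. Summed CPM of 10 macrophage markers was 316, 346 and 306 in those 3 libraries, against 631 to 2127 in the other DTR libraries and 196 to 335 in the WT libraries. CPM is a gene's count relative to the library size, with library sizes adjusted by TMM, which balances the bulk of genes between libraries. All 14 cardiomyocyte markers were above 1 CPM in every group. Animal tags end in U or V, a letter the labels do not explain: each WT group held 4 U and 2 V, and each DTR group 2 U and 4 V, with DTR_PYR 4, 5 and 6 all V. V tags all begin with 9, U tags of DTR animals with 3, and U tags of WT animals with 2 or 3. Injury differences within U animals therefore still mix tags that begin with 2, found only in WT.

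Levels between genes can be set side by side per length, as CPM divided by the kb of annotated exon. In WT_PBS hearts Trim54 stood highest at 165 ± 20.8 CPM per kb (SD, n = 6), followed by Trim63 at 86.8 ± 13.5. Trim55 at 27.8 ± 4.89, Foxo3 at 25.2 ± 2.61, Fbxo32 at 22.6 ± 4.12 and Foxo4 at 20.4 ± 0.97 followed, and each neighbouring pair among these 4 differed by less than the larger of its 2 SDs. Foxo1 was lowest, well below them, at 3.78 ± 0.469 CPM per kb. With the longest transcript as the length, Trim63 came to 131 CPM per kb and the order was the same. In DTR_PBS hearts Fbxo32 was at 10.1 ± 3.55 and Foxo4 at 7.53 ± 2.40 CPM per kb against 59.4 ± 19.0 for Trim63 and 154 ± 64.3 for Trim54.

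The comparison of DTR_PBS with WT_PBS asks what injury did without the drug. Fbxo32, Trim63 and Foxo4 fell, none of the 7 rose, and Trim55, Trim54, Foxo1 and Foxo3 did not pass the test. The background is broad: 42.9% of all 15456 genes tested passed in either direction and 21.6% fell, at an edgeR adjusted p under 0.05. Foxo4 ranked 33rd of the 15456 genes by p.

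Fbxo32, the atrogin-1 gene, was at 118, 159 and 200.1 CPM (lowest, median and highest library) in WT_PBS and at 47.9, 63.9 and 114 CPM in DTR_PBS. The groups did not overlap, although the highest DTR_PBS library came within a few CPM of the lowest WT_PBS one; 11% of all genes were lower in every DTR_PBS library than in any WT_PBS library. Fbxo32 fell by 1.17 on the log2 scale (SE 0.296, 95% interval -1.77 to -0.56, edgeR adjusted p = 0.00260). Within U animals the mean log2 difference was -1.43 and within V animals -1.25. In bulk RNA, fewer cells of a type and less RNA per cell cannot be told apart, here and in every comparison that follows.

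Trim63, the MuRF1 gene, was at 188, 255 and 302 CPM in WT_PBS and at 99.3, 172 and 239 CPM in DTR_PBS. The groups overlapped, with DTR_PBS 3, 5 and 6 inside or at the edge of the WT_PBS range and DTR_PBS 1 and 2 lowest. It fell by 0.55 (SE 0.185, edgeR adjusted p = 0.0186), from 247 ± 38.4 to 169 ± 54.1 CPM. The call rested on DTR_PBS 1 and 2: without the first the adjusted p was 0.0522, and without the second 0.0546. The difference was -1.05 within U animals and -0.26 within V animals.

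Foxo4, one of the FoxO factors and the only one of the 7 genes on the X chromosome, was at 66.9, 70.6 and 75.4 CPM in WT_PBS and at 17.1, 25.5 and 37.0 CPM in DTR_PBS. Every injured library lay far below every uninjured one. It fell by 1.43 (SE 0.183, 95% interval -1.81 to -1.06, edgeR adjusted p = 1.12e-05), or 2.70-fold. In WT_PBS it varied less among animals than the other 6 genes, with an SD of 4.79% of the mean, and in DTR_PBS that share was 31.9%.

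Trim55, the MuRF2 gene, was at 61.9, 70.1 and 97.4 CPM in WT_PBS and at 42.5, 65.2 and 87.5 CPM in DTR_PBS, and gave -0.23 (edgeR adjusted p = 0.264). Trim54, the MuRF3 gene, spread from 105 to 348 CPM in DTR_PBS, against 197 to 266 CPM in WT_PBS, and gave -0.10 (edgeR adjusted p = 0.728). Injured libraries of Trim54 lay both below and above the uninjured range, with DTR_PBS 1 and 2 lowest, as for Trim63 and Fbxo32. The mean log2 difference of Trim54 was -0.75 within U animals and 0.09 within V animals. Foxo1, the FoxO factor of the insulin response, was at 26.4, 32.8 and 39.1 CPM in WT_PBS and at 25.1, 29.5 and 32.4 CPM in DTR_PBS, and gave -0.17 (edgeR adjusted p = 0.269). Foxo3, a FoxO factor known to drive Fbxo32 in muscle, gave -0.02 (edgeR adjusted p = 0.953). It likewise spread from 78.1 to 278 CPM in DTR_PBS, around a WT_PBS range of 160.0 to 210.3, and differed by -0.76 within U animals and 0.18 within V animals. For Foxo3 the 95% interval of the difference ran from -0.51 to 0.47, and for Foxo1 from -0.43 to 0.08. These intervals bound the differences of the 2 genes and do not show the groups to be equal.

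**Figure D1:**
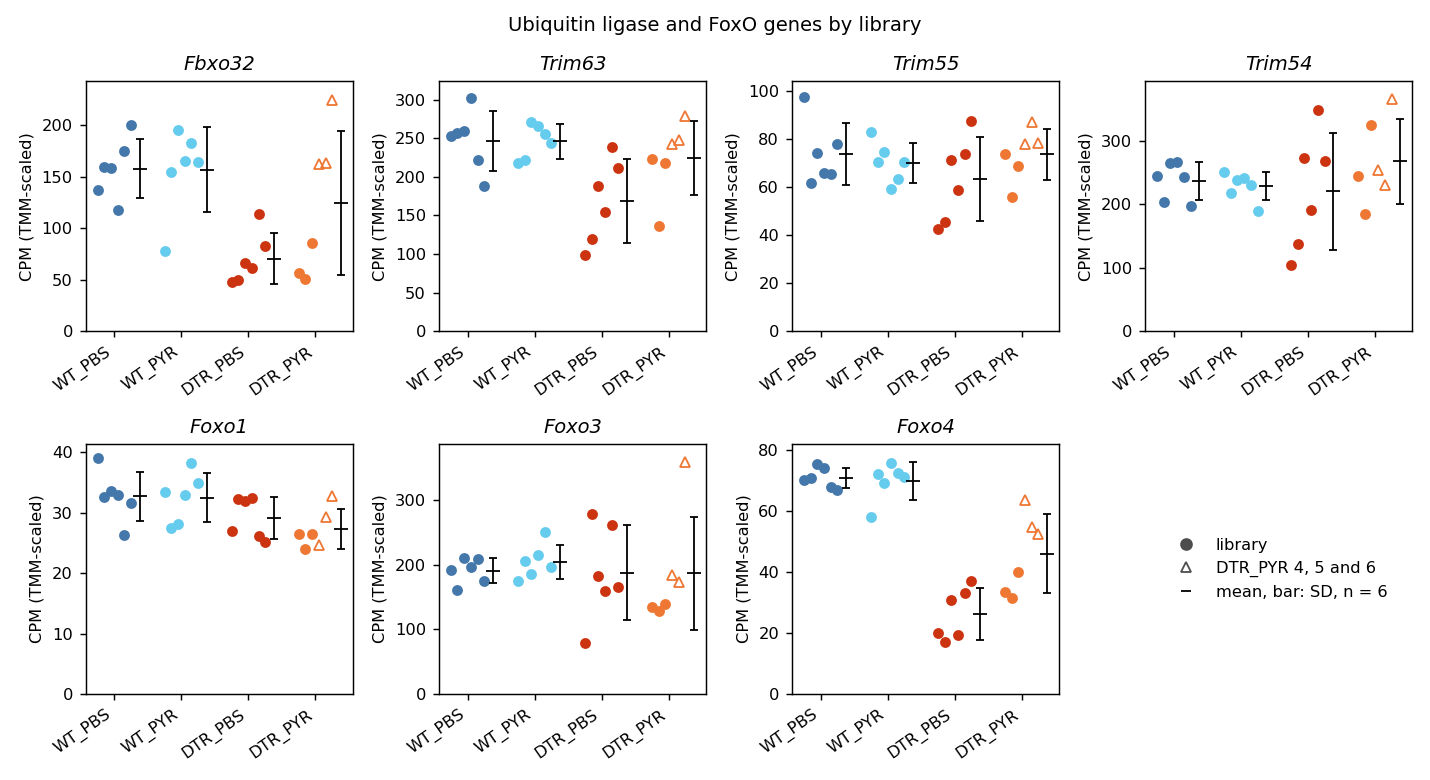
TMM-scaled CPM of each of the 7 genes in every library, by group, with the mean and SD over 6 libraries at the right of each group; open triangles are DTR_PYR 4, 5 and 6. Fbxo32 and Foxo4 libraries of DTR_PBS all lie below those of WT_PBS, and the open triangles lie above the other DTR_PYR libraries for these 2 genes.

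Directions depended on how the libraries were scaled. Cardiomyocyte markers were lower in injured hearts: their summed CPM ran from 92864 to 100589 in WT_PBS and from 32893 to 85640 in DTR_PBS, and 7 of 14 fell while 1 rose. Of the markers of other cells, 7 of 10 endothelial markers fell and 10 of 10 macrophage markers rose. Of 10 fibroblast markers 5 rose and 1 fell, of 10 pericyte and smooth muscle markers 2 rose and 3 fell, and of the 3 skeletal muscle markers tested 1 rose and 1 fell. With libraries scaled to the summed counts of the 14 cardiomyocyte markers instead, the median of all genes moved from 0.01 to 0.95, and 60.2% of all genes rose and 4.02% fell. Foxo4 still fell on that scale, by 0.65 (edgeR adjusted p = 0.000502), whereas Fbxo32 at -0.38 (0.185) and Trim63 at 0.23 (0.122) did not pass. Trim55 (0.57), Trim54 (0.62), Foxo1 (0.78) and Foxo3 (0.87) rose on it, each by less than that median of all genes. With scaling to total counts, where the median of all genes was 0.39 and 36.9% rose and 11.4% fell, Fbxo32 (-0.83) and Foxo4 (-1.11) fell, Trim63 at -0.23 did not pass (edgeR adjusted p = 0.244), and the other 4 genes were between 0.11 and 0.34.

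**Figure D2:**
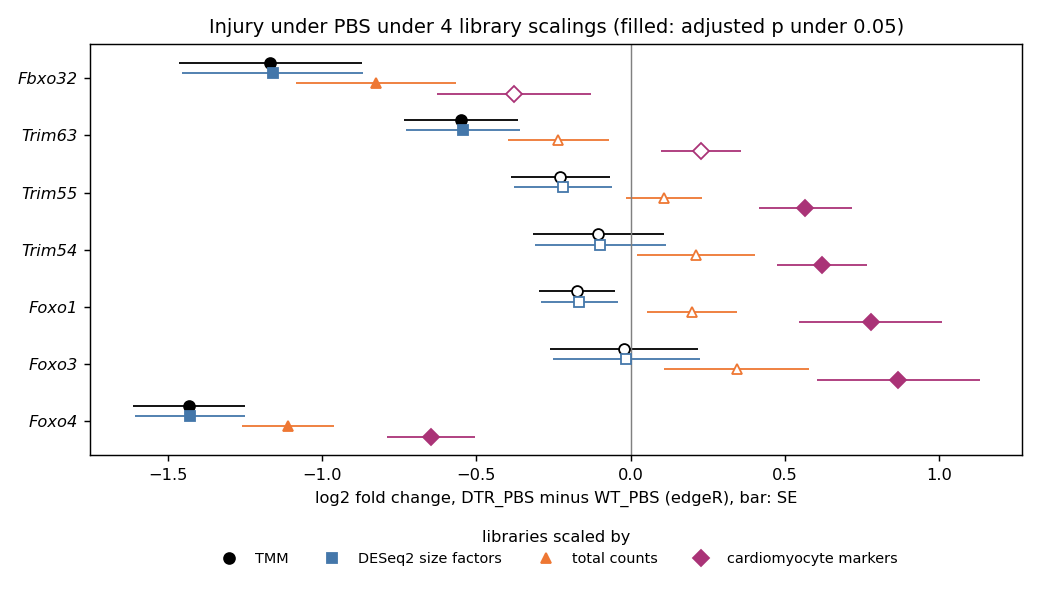
Log2 fold change of DTR_PBS against WT_PBS for each gene under 4 ways of scaling the libraries, with bars for the SE; filled symbols passed an adjusted p of 0.05. Foxo4 is filled and left of 0 under all 4, and Trim55, Trim54, Foxo1 and Foxo3 are filled only under cardiomyocyte marker scaling, to the right of 0.

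Ratios between genes of the same library do not depend on scaling. Each of the 21 pairs was compared between groups by a two-sided exact permutation test in 4 comparisons, 84 tests in all, added after the values were seen and adjusted over the 84. For injury under PBS, 9 of 21 pairs passed. Foxo4 fell against Trim63 by 0.90, and against Trim55, Trim54, Foxo1 and Foxo3 by 1.24 to 1.37, with an exact p of 0.00216, the smallest that 924 arrangements can give, and an adjusted p of 0.0303. Fbxo32 fell against Trim55 (-0.96), Trim54 (-1.0) and Foxo3 (-1.09), each at an exact p of 0.00433 and the same adjusted p. Trim63 fell against Trim54 (-0.39, exact p = 0.00433, adjusted p = 0.0303), the pair whose promoters are printed above. Between Fbxo32 and Foxo4 the log2 ratio differed by 0.28 (exact p = 0.136, adjusted p = 0.327), and between Fbxo32 and Trim63 by -0.61 (exact p = 0.0130, adjusted p = 0.0682). Among Trim55, Trim54, Foxo1 and Foxo3 no pair passed, with differences from -0.13 to -0.04.

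The comparison of DTR_PYR with WT_PYR asks the same of injury under the drug. Foxo4 alone fell among the 7 genes, and none rose, where 12.2% of all genes tested passed in either direction, 4.17% lower and 8.06% higher. Foxo4 was at 58.0, 71.8 and 75.7 CPM in WT_PYR and at 31.4, 46.3 and 63.8 CPM in DTR_PYR. The groups overlapped, because DTR_PYR 4 at 63.8 CPM lay above WT_PYR 1 at 58.0. None of the 7 genes was lower in every DTR_PYR library than in any WT_PYR library, against 3.18% of all genes. Foxo4 fell by 0.59 (SE 0.179, edgeR adjusted p = 0.0322). The call was lost on leaving out any 1 of WT_PYR 2, 4, 5 and 6 or of DTR_PYR 1, 2 and 3, with adjusted p from 0.0515 to 0.0950.

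Fbxo32 was the gene most divided within DTR_PYR. It was at 56.7, 51.2 and 86.2 CPM in DTR_PYR 1, 2 and 3 and at 163, 164 and 225 CPM in DTR_PYR 4, 5 and 6. The first 3 libraries lay in the DTR_PBS range and the last 3 in or above the range of WT_PYR, which ran from 78.4 to 195. Over all 6 libraries the difference from WT_PYR was -0.33 (95% interval -0.93 to 0.27, edgeR adjusted p = 0.469). The mean log2 difference was -1.38 within U animals and -0.21 within V animals, which include DTR_PYR 4, 5 and 6. Without DTR_PYR 4, 5 and 6, Fbxo32 fell by 1.28 (adjusted p = 0.00120) and Foxo4 by 1.0 (adjusted p = 0.000543), where 33% of genes passed, 15.4% lower and 17.5% higher. Those libraries were picked from the same expression values and were the highest of DTR_PYR for both genes. A larger fall therefore follows from leaving them out, and these p-values are no separate support. No other gene of the 7 passed without those libraries, with Foxo3 at -0.61 (0.0622) and Trim63 at -0.35 (0.243).

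The other 5 genes did not pass under the drug with all 6 libraries. Trim63 ran from 137 to 279 CPM in DTR_PYR around a WT_PYR range of 218 to 271, and gave -0.13. Trim55 gave 0.07, Trim54 0.23, Foxo1 -0.25 and Foxo3 -0.13, and edgeR adjusted p ran from 0.181 to 0.801 over these 5. Foxo1 was at 24, 26.5 and 32.8 CPM in DTR_PYR and at 27.5, 33.2 and 38.2 CPM in WT_PYR. Foxo3 held 1 high library, DTR_PYR 6 at 358 CPM, where the other 5 ran from 129 to 184. Of the 21 within-library ratios, 3 passed: Foxo4 fell against Trim63 by 0.49 and Trim55 by 0.71 (exact p = 0.00433, adjusted p = 0.0303 for both) and against Trim54 by 0.84 (exact p = 0.00649, adjusted p = 0.0420). Leaving out 1 library at a time gave 0 to 5 such pairs. Under cardiomyocyte marker scaling Trim55 (0.49) and Trim54 (0.64) rose and Foxo4 at -0.20 did not pass (edgeR adjusted p = 0.294), with the median of all genes at 0.48, 18.1% of them higher and 0.705% lower.

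**Figure D3:**
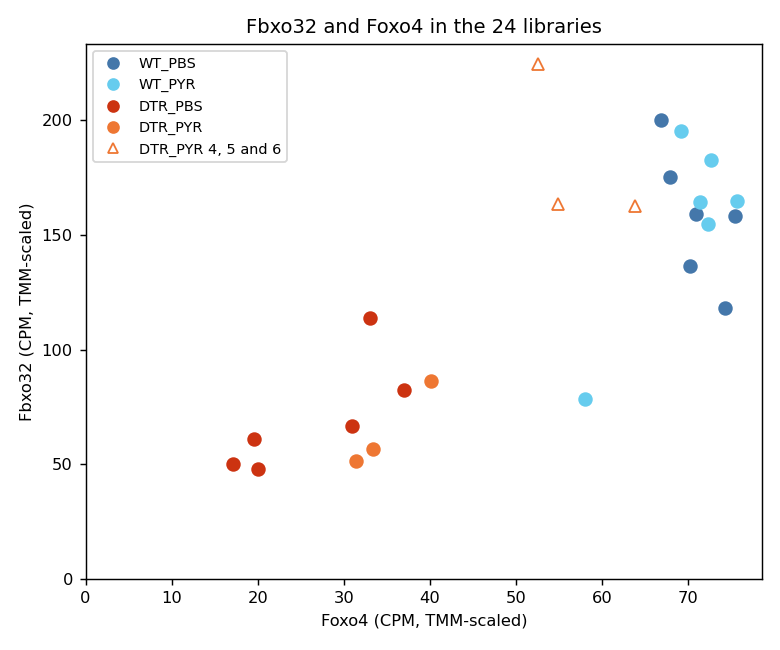
TMM-scaled CPM of Fbxo32 against that of Foxo4 in the 24 libraries, coloured by group, with open triangles for DTR_PYR 4, 5 and 6. The other 9 injured libraries lie at or below 40.2 CPM of Foxo4 and 114 CPM of Fbxo32, and the triangles and WT_PYR 1 lie between them and the remaining uninjured libraries for Foxo4.

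The comparison of DTR_PYR with DTR_PBS asks what pyridostigmine did after injury. In edgeR it gave 0 of 15456 genes (0%) at an adjusted p under 0.05, with 2991 (19.4%) at an unadjusted p under 0.05, while DESeq2 gave 248 genes and limma voom 1765. DESeq2 started from every gene with a read, not from these 15456, so its counts here and below are over another set of genes. Foxo4 was at 46.0 ± 13.0 CPM in DTR_PYR and 26.3 ± 8.37 in DTR_PBS, with the groups overlapping between 31.4 and 37.0 CPM. Its difference was 0.82 (95% interval 0.44 to 1.19, unadjusted p = 1.30e-04, edgeR adjusted p = 0.131), and it ranked 12th of all genes by p. DESeq2 gave 0.83 (adjusted p = 0.00876) and limma voom 0.87 (adjusted p = 0.00961) for Foxo4, which was the only one of the 7 genes that either tool called.

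Fbxo32 gave 0.83 (edgeR adjusted p = 0.160) and Trim63 0.41 (0.222), and the remaining 4 genes lay between -0.09 and 0.28. For Fbxo32 the mean log2 difference was -0.01 within U animals and 1.01 within V animals. For Foxo4 it was 0.71 and 0.88, and for Trim63 0.50 and 0.42. None of the 7 had groups without overlap, and among all genes 0.162% were higher and 0.214% lower without overlap. Without DTR_PYR 4, 5 and 6 the Fbxo32 value turned to -0.13 (edgeR adjusted p = 0.917), Foxo4 went to 0.41 (0.822) and Trim63 to 0.19 (0.861). Each of these genes was highest within DTR_PYR in those libraries, so lower values follow from leaving them out. Without DTR_PYR 2 alone, edgeR called 2395 genes, among them Fbxo32 (0.98, adjusted p = 0.0226), Trim63 (0.52, 0.0453) and Foxo4 (0.90, 0.0121); without DTR_PBS 6 alone it called 30 genes, among them Foxo4 (0.94, 0.0379). Foxo4 against Trim55 was the 1 ratio that passed, higher by 0.57 in DTR_PYR (exact p = 0.00433, adjusted p = 0.0303). Macrophage markers, at a median summed CPM of 501 in DTR_PYR and 1076 in DTR_PBS, and cardiomyocyte markers, at 84877 and 61696, moved with these values; their part in the result was not tested.

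In uninjured hearts, WT_PYR against WT_PBS, the 7 genes lay between -0.08 and 0.10. Neither edgeR, DESeq2 nor limma voom called any of the 15456 genes, with 481 (3.11%) at an unadjusted p under 0.05 in edgeR and none of the 7 among them. Foxo4 stood at 69.9 ± 6.17 CPM with the drug and 70.9 ± 3.40 without, and Fbxo32 at 157 ± 41.1 and 158 ± 28.7. The 95% intervals were -0.39 to 0.34 for Foxo4 and -0.61 to 0.59 for Fbxo32.

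The interaction asks whether the effect of injury differed between vehicle and drug. It gave 0.84 for Foxo4 (95% interval 0.32 to 1.36, unadjusted p = 0.00277, edgeR adjusted p = 0.512) and 0.84 for Fbxo32 (-0.01 to 1.69, adjusted p = 0.634). No gene passed in edgeR or limma voom, with 1231 (7.96%) at an unadjusted p under 0.05 in edgeR, and DESeq2 called 9 genes, none of them among the 7. The 2 injury comparisons have separate control groups, while each drug comparison shares its libraries with them.

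**Figure D4:**
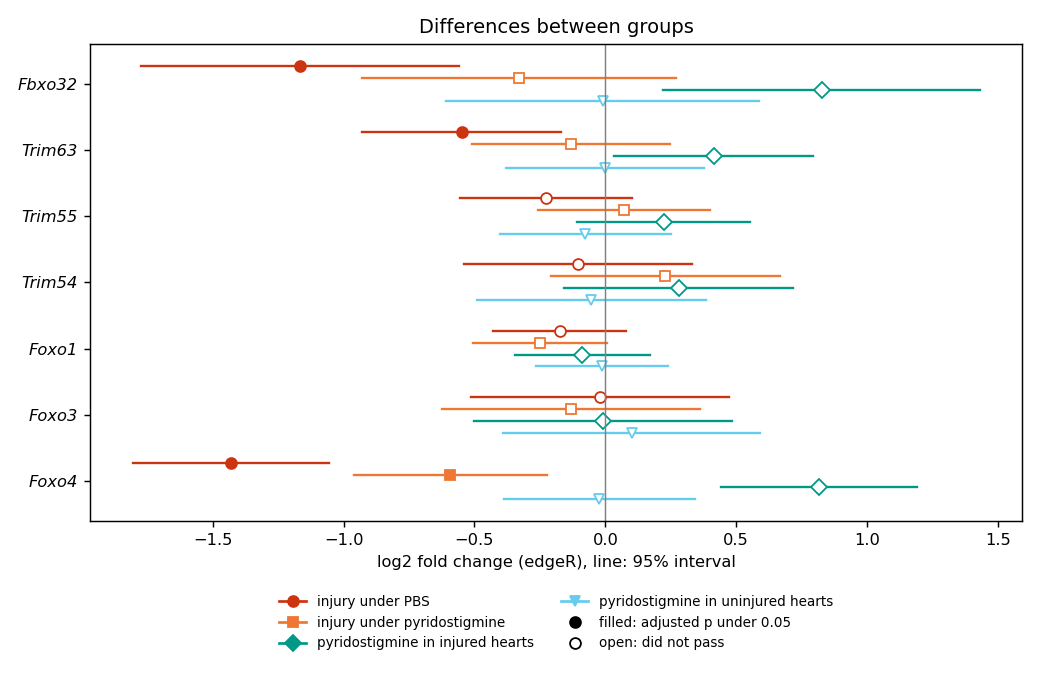
Log2 fold change and 95% interval of each gene in 4 comparisons; filled symbols passed an edgeR adjusted p of 0.05. The 4 filled symbols are Fbxo32, Trim63 and Foxo4 for injury under PBS and Foxo4 for injury under pyridostigmine, and the values in uninjured hearts lie between -0.08 and 0.10.

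Lists of genes around the 7 are described next by their counts, with no test of a list. The shares of all genes to read them against were 21.3% higher and 21.6% lower for injury under PBS, or 60.2% and 4.02% under cardiomyocyte marker scaling. For injury under pyridostigmine they were 8.06% higher and 4.17% lower, or 17.5% and 15.4% without DTR_PYR 4, 5 and 6. Those libraries were picked from the same expression values, so counts without them are description only. Other ubiquitin ligases and adaptors of muscle moved both ways after injury under PBS. Of 19 tested, 8 fell, 4 rose and 7 did not pass, with a median of -0.24 against 0.01 over all genes. Asb15, a muscle adaptor of cullin ligases, fell by 1.34, Kbtbd13, a cullin adaptor of muscle, by 1.64, and Fbxo21, an F-box protein, by 1.02. Mdm2, the ligase that holds p53 down, rose by 0.65. Under cardiomyocyte marker scaling 11 of 19 were higher, near the share of all genes that rose there, and Asb15 and Kbtbd13 still fell. Injury under pyridostigmine gave 2 rises, Mdm2 (0.48) and Itch (0.60), and no fall, and 2 rises and 3 falls without DTR_PYR 4, 5 and 6.

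In the shared machinery of ubiquitin transfer, 4 of 15 genes fell, 3 rose and 8 did not pass (median -0.02), near the shares of all genes. Under cardiomyocyte marker scaling 12 of 15 rose and 0 fell, where 60.2% of all genes rose. Ube2d1, an E2 enzyme that works with RING and F-box ligases, fell by 0.91, from 36.7 ± 3.71 to 19.6 ± 2.81 CPM with no overlap. Ube2j1, an E2 enzyme of the endoplasmic reticulum, rose by 0.54. Skp1a, the SCF subunit that F-box proteins such as atrogin-1 bind, fell by 0.95. It did not pass under total-count scaling (-0.53, edgeR adjusted p = 0.106) or cardiomyocyte marker scaling (0.10). Its WT_PBS level was scattered, at 80.7 ± 34.4 CPM, against 41.4 ± 14.6 in DTR_PBS and 51.1 ± 14.1 in uninjured WT_PYR. Rps27a, a ubiquitin fusion gene, rose by 0.90, but it has many near-identical copies in the genome, so its counts are uncertain. Under pyridostigmine 3 rose, among them Ube2j1 (0.62), and 1 fell, the same counts with and without DTR_PYR 4, 5 and 6.

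Of 23 known FoxO target genes outside the ligases that were tested, 9 fell, 3 rose and 11 did not pass, with a median of -0.41. Of the 20 with a promoter in the RefSeq table, 2 (Sesn1 and Txnip) held the FoxO core letters in the 300 bases around a start. Of all RefSeq windows of that length, 3.65% held them. A gene counted if any of its windows did (1 of 2 for Sesn1), so genes and windows are not like shares. Pik3ip1, an inhibitor of PI3 kinase, fell by 1.74, Bnip3, a mitophagy receptor, by 1.40, Sesn1, a stress-induced inhibitor of mTORC1 signalling, by 1.19, and Map1lc3a, an autophagosome protein, by 1.19. The 3 that rose, named after their values were seen, were Irs2 (1.78), the insulin receptor substrate, Bcl6 (0.98), a transcriptional repressor, and Gabarapl1 (0.69), another autophagosome protein. Under cardiomyocyte marker scaling 11 of 23 rose and 2 fell, Pik3ip1 and Map1lc3a, where 60.2% of all genes rose and 4.02% fell, with a median of 0.52 against 0.95 for all genes. Injury under pyridostigmine gave 1 rise (Irs2, 1.78), 2 falls and 20 that did not pass, and 3 rises and 8 falls without DTR_PYR 4, 5 and 6.

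Genes of the insulin, IGF and Akt pathway that acts on FoxO gave 5 of 20 higher and 5 lower after injury under PBS, close to the shares of all genes. Igf1, the growth factor, rose by 1.62, and Pdpk1, the kinase that activates Akt, by 1.0. Tsc2, which restrains mTORC1, fell by 0.91, and Phlpp1, a phosphatase of Akt, by 0.73; on the cardiomyocyte marker scale these 2 were at -0.12 and 0.09 and did not pass, and 14 of 20 genes were higher and 0 lower, where 60.2% of all genes were higher. Under pyridostigmine Pdpk1 (0.75) and Igf1 (1.12) rose, 3 genes fell and 15 did not pass; without DTR_PYR 4, 5 and 6 the counts were 4 higher and 4 lower.

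A list of 16 genes held enzymes and binding proteins that act on FoxO, and also Foxo6. Under PBS 9 rose, 2 fell, Foxo6 among them, and 5 did not pass (median 0.55). Under pyridostigmine 5 rose, 1 fell and 10 did not pass (median 0.33), and 8 rose and 1 fell without DTR_PYR 4, 5 and 6. Crebbp and Ep300, acetyltransferases that modify FoxO proteins, rose by 1.18 and 0.72. Skp2, an F-box protein known to target Foxo1 protein, rose by 2.32 from a low level, 0.621 ± 0.401 to 3.31 ± 2.25 CPM. Foxo6, the other FoxO family member, fell by 2.16, from 7.23 ± 3.35 to 1.67 ± 0.730 CPM with no overlap, and was also lower on the cardiomyocyte marker scale (-1.37, edgeR adjusted p = 0.00401). Under pyridostigmine Sirt1, a deacetylase of FoxO proteins, rose by 1.16 and Ywhaz, a 14-3-3 protein that holds FoxO in the cytoplasm, by 0.63.

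Of 14 genes for other inputs to muscle wasting that were tested, 5 rose and 1 fell under PBS. Inhba, which encodes the activin A subunit, rose by 4.16, from 0.735 ± 0.443 to 14.1 ± 4.83 CPM. Tnfrsf12a, the TWEAK receptor, rose by 3.41, Il6ra, the interleukin-6 receptor, by 1.5, and Stat3, which acts downstream of that receptor, by 0.82. For each of these 4 genes every DTR_PBS library lay above every WT_PBS library. They were named for the smallest p of the list, and the share of all genes that did so was not counted. Under cardiomyocyte marker scaling 12 of 14 rose and 0 fell, where 60.2% of all genes rose. Under pyridostigmine 4 rose, Inhba by 3.25 and Tnfrsf12a by 2.56 among them, and 0 fell; without DTR_PYR 4, 5 and 6 there were 6 rises and 2 falls, with 17.5% of all genes higher and 15.4% lower in place of 8.06% and 4.17%.

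Muscle proteins known as substrates or partners of the ligases gave 6 falls, 0 rises and 12 that did not pass under PBS (median -0.30), and 7 of the 18 listed are also on the cardiomyocyte or skeletal muscle marker lists. Myl2, the ventricular myosin light chain, fell by 1.91, Ppara, a nuclear receptor of fat oxidation, by 1.67, Ckm, muscle creatine kinase, by 1.35, and Mybpc3, myosin binding protein C, by 1.20. All 4 also fell on the cardiomyocyte marker scale, where 10 of the 18 rose and 5 fell, beside 60.2% and 4.02% of all genes. Mybpc3, and also Actn2, Tnni3, Myh6, Ttn and Tnnt2 of this list, are among the markers that set that scale. For these genes the scale is therefore no independent check. Under pyridostigmine only Myl2 fell (-1.52), and without DTR_PYR 4, 5 and 6 the split was 5 lower and 1 higher.

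**Figure D5:**
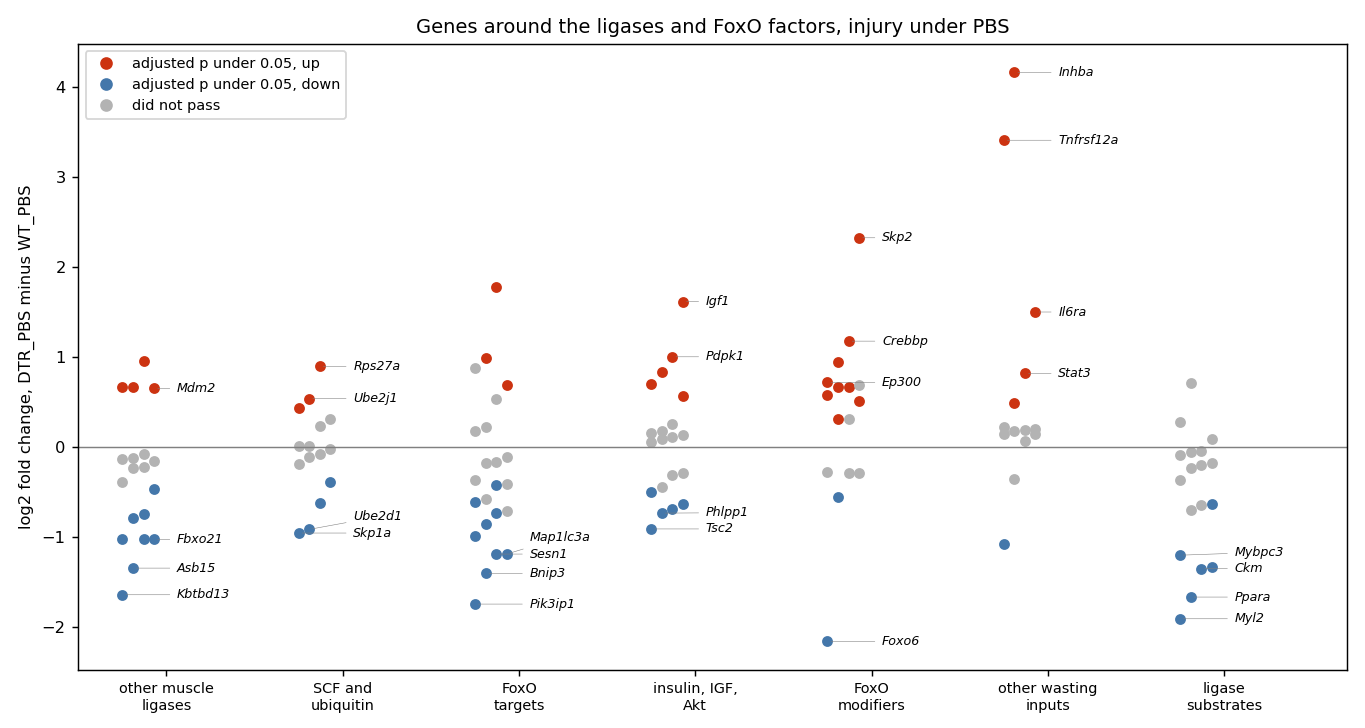
Log2 fold change of DTR_PBS against WT_PBS for every tested gene of 7 lists around the ligases and FoxO factors, TMM-scaled; red and blue points passed an edgeR adjusted p of 0.05 upward or downward and grey points did not. FoxO targets hold 9 blue and 3 red points, and FoxO modifiers 9 red and 2 blue, with Foxo6 among the blue.

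Likeness of pattern was measured as the root mean square difference of log2 CPM, centred on each gene's mean, over the 24 libraries and 10205 genes of at least 5 CPM. Closest to Foxo4 were Kcnj5 (0.165), a potassium channel subunit, Carns1 (0.17), which makes carnosine, and Cpe (0.185), a peptide-processing carboxypeptidase. Closest to Fbxo32 were Zfp106 (0.235), Hsdl2 (0.240) and Fam214a (0.245). Trim63 was nearest to Lonp1 (0.148), a mitochondrial protease, Trim55 to Casq2 (0.133), the calcium store protein of the sarcoplasmic reticulum, and Trim54 to Pacsin3 (0.155). Foxo1 was nearest to Rab7 (0.154) and Foxo3 to Cobll1 (0.243). Among the 7 genes themselves the nearest pairs were Trim63 with Trim54 (0.266), Trim55 with Trim54 (0.272) and Trim63 with Trim55 (0.284), and Fbxo32 was nearer to Foxo4 (0.371) than to Trim63 (0.485). The measure favours genes that vary little, because a gene's own root mean square about its mean is its distance to a flat gene. That was 0.271 for Trim55, no larger than its distances to Trim54 and Trim63, and 0.194 for Foxo1, not far above its distance to Rab7.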

How the data were processed

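The authors deposited unnormalised read counts per gene for 24 libraries, each title carrying a distinct animal tag. Whole-table counts from the unfiltered table were used. A filtered count table and a depth-normalised signal table were also deposited by the authors; they served only to check values and as an alternative set of genes, and the signal equalled counts divided by 1 factor per library to within 0.0351. Per the submitters' processing notes, the tools were HTSeq, TopHat2 2.1.1, TopHat, Bowtie2, edgeR and DESeq, and the build was GRCm38; the sources used here do not give the role of each tool.

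A gene entered the test (15456 did) when 6 or more libraries exceeded 0.5 CPM; libraries were scaled by TMM and fitted with edgeR 4.0.16 (glmQLFit, glmQLFTest; R 4.3.3), with 1 coefficient per group and all 24 libraries. The 5 contrasts were tested; p-values are two-sided, adjusted by Benjamini-Hochberg over all genes tested, and called under 0.05. They set each difference between groups against the spread between animals, which edgeR estimated per gene over all 4 groups together, with information shared across genes. Standard errors are the fold change over the root of F. Log2 CPM used a prior count of 2. DESeq2 1.42.0 and limma 3.58.1 (voom) were alternatives, with other scalings, filters, the tag letter as a covariate and left-out libraries. The voom fit used the same 15456 genes, whereas DESeq2 used every gene with a read and its own filter. The edgeR step was tested on simulated data.

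The 7 genes, the lists and most tests were chosen with earlier results of these data known. Named list genes are the 4 smallest p among called genes of each list for injury under PBS and the 2 smallest for each other comparison; the 3 genes of closest pattern were found for each of the 7. List counts without DTR_PYR 4, 5 and 6 and under other scalings, and the ratios, were added after the values were seen. Protein sequences were not analysed here, and 1 gene of the ubiquitin list is not reported here.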

Additional observations from a re-analysis of the deposited data

Results flagged for a closer look

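Among the 28 sets of 6 libraries (7 genes in 4 groups), 3 held a library far from the rest, judged by its gap to the nearest other library as a share of the group's range; chance gives this in about 1 in 20 sets. WT_PYR 1 was the lowest library for both Fbxo32 (78.4 CPM, next 155, share 0.652) and Foxo4 (58.0 CPM, next 69.2, share 0.632). DTR_PYR 6 was the highest for Foxo3 (358 CPM, next 184, share 0.758). Without WT_PYR 1 or without DTR_PYR 6, no call on these 3 genes changed in injury under pyridostigmine.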

How the results depend on the processing

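Calls on Fbxo32 and Foxo4 in injury under PBS held under every count model, filter and left-out library tried, with Fbxo32 from -1.36 to -1.07 and Foxo4 from -1.55 to -1.32 on leaving out 1 library, and were lost only for Fbxo32, under cardiomyocyte marker scaling. That scaling turned Trim63 (0.23), Trim55 (0.57), Trim54 (0.62), Foxo1 (0.78) and Foxo3 (0.87) above 0 in injury under PBS and called 5 of the 7 genes there and 2 of 7 in injury under pyridostigmine, with 2909 genes called in all; the share called upward went from 3293 of 6634 to 9300 of 9922 genes under PBS, and to 5705 of 7461 with total counts. Injury under pyridostigmine gave 1891 genes as reported, 1232 and none of the 7 with no filter, 2920 with the tag letter as covariate, 787 with limma voom, 1220 with only its groups and 5043, 2 of them among the 7, without DTR_PYR 4, 5 and 6. Pyridostigmine in injured hearts gave 248 genes with DESeq2 and 1765 with limma voom, 1 of the 7 in each, and the interaction 9 with DESeq2. Leaving out 1 library gave 748 to 2707 genes and 0 to 1 of the 7 in injury under pyridostigmine, and 0 to 2395 genes and 0 to 3 of the 7 for the drug in injured hearts; the ratio pairs passing ran from 0 to 5 and from 1 to 2. Without DTR_PYR 4, 5 and 6 no ratio pair passed in either comparison, where 3 against 6 libraries allow fewer arrangements. The smallest exact p they can give is therefore larger, and it could pass the adjustment only if many pairs reached it together. The ratio test without those libraries thus cannot decide whether the ratios held, and nothing is concluded from it. Per length, the longest transcript gave 131, 27.8 and 22.4 CPM per kb for Trim63, Foxo3 and Foxo4. Except where the construction shows it, the cause was not tested. No paired analysis was possible because the titles give each animal its own tag and share no replicate number. The lowest library, at 1.88 M counts, held 44 reads of Foxo4 and 73 of Foxo1, which limits their precision.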
